A study of Mus musculus with 4 samples.

Results

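The 30 genes described here are germline genes, used in meiosis, in sperm or egg development or in early embryos. Many such genes are kept off in most body cells by methylation of their promoters, which was not measured here. They were chosen by name. A gene was taken as measured where the platform's gene table pairs a transcript cluster, the set of probes that the array reads as 1 transcript, with that gene's symbol alone. All 30 had such a cluster, and 32 clusters belong to them (Hormad1 and Dppa3 have 2 each), of 21789 clusters and 19938 genes with a single symbol and 35556 clusters in all. RNA was measured on 4 arrays from CH12.F3, a mouse B lymphoma line that switches from IgM to IgA in culture. The 2 control arrays and the 2 Mbd4 KO arrays, from cells without Mbd4, differ in the labels by this genotype alone. Both groups were grown in medium with 6% FCS and received IL4 (5 ng/ml), TGFb (0.2 ng/ml) and CD40L (25% of the volume) over 24 hours, a mixture that drives the switch to IgA. The series describes the samples of a group as independent, but the labels do not say whether they are separate cultures or separate knockout clones, nor how Mbd4 was deleted. The p-values therefore measure how far these arrays vary, possibly for technical reasons, and a difference may belong to the cells compared rather than to the missing gene.

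Germline genes fall into working groups. Synaptonemal complex and axis proteins hold paired chromosomes together in meiosis. PIWI proteins, Tudor-domain proteins and RNA helicases make and use piRNAs, the small RNAs that silence transposons in germ cells. DAZ-family proteins bind germ cell messenger RNAs. In body cells many of these genes have CpG-rich promoters that the DNA methyltransferases methylate, after the repressors E2F6 and MGA with MAX and their Polycomb partners have bound them. Mbd4 binds methylated CpG sites and removes the thymine that forms when a methylated cytosine is deaminated. The question of the comparison was whether a germline gene that is silent in activated B lymphoma cells gains signal without Mbd4. DNA methylation was not measured in the data used here.

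Promoters of the members carried many CpG sites. RefSeq promoters (GRCm38.p6), from 250 bases before to 50 bases after the start, were matched for 28 of the 30 genes by symbol; Dppa3 and Piwil2 had no entry. The median over these genes was 18.5 CpG sites in 300 bases, with a median ratio of observed to expected CpG of 0.688. Over all 27018 genes with a promoter entry the medians were 8 sites and 0.413. The ratio was above 0.5 in 22 of 28 members (78.6%) and in 44.3% of all genes. Smc1b had the highest ratio (1.08, 29 sites) and Sycp2 the lowest (0.363, 10 sites). Below are the 250 bases upstream of Dazl, the best known gene of this kind, and of the paralogs Tuba3a and Tuba3b, of which Tuba3a read above the array medians and Tuba3b as silent. Capitals mark CpG sites, of which there are 20, 8 and 14. Dazl lies at chr17:50293621-50293870 on the minus strand, Tuba3a at chr6:125286082-125286331 on the minus strand and Tuba3b at chr6:145615713-145615962 on the plus strand.
Dazl: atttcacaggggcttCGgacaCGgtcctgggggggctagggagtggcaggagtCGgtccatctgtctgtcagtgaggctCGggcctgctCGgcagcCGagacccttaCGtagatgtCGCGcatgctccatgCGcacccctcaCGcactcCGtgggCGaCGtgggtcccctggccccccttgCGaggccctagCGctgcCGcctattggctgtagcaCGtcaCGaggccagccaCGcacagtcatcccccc
Tuba3a: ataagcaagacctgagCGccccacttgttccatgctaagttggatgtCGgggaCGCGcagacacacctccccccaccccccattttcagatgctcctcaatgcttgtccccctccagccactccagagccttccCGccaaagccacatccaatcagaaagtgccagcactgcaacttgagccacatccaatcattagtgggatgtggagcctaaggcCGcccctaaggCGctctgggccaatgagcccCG
Tuba3b: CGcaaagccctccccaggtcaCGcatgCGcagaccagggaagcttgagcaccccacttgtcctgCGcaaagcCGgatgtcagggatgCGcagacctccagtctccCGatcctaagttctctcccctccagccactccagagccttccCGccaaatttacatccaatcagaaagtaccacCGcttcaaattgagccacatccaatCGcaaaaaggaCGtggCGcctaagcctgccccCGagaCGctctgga
The upstream stretches of Tuba3a and Tuba3b were 77.5% identical over 218 aligned bases and shared an unbroken run of 33 bases.

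Letters of the E2F6 motif and of the MGA and MAX motif were more frequent in the members than in promoters at large. The MGA and MAX E-box CACGTG, which reads the same on both strands, was found in 13 of 28 members (46.4%) and in 7.4% of all promoters of that length. The E2F6 motif TTCCCGC, or GCGGGAA on the other strand, was found in 8 of 28 (28.6%) and in 4.87% of all. By their letters the motifs can share at most 1 base, and both hold a CpG. Among genes with a CpG ratio above 0.5 the E-box was present in 12 of 22 members (54.5%) and 11% of all, and the E2F6 motif in 7 of 22 (31.8%) and 9.41%. These are matches of letters in genes chosen for their silencing, not measured binding sites of these or other proteins, and the shares were not tested. Some members, such as Slc25a31, are known targets of these repressors. The higher shares may therefore come from the choice of genes and are not an independent observation. The 3 promoters below hold both motifs upstream of the start, in capitals. They are Sycp3 (chr10:88459337-88459586, plus strand), Hormad1 (chr3:95559427-95559676, plus strand) and Ddx4 (chr13:112652311-112652560, minus strand).
Sycp3: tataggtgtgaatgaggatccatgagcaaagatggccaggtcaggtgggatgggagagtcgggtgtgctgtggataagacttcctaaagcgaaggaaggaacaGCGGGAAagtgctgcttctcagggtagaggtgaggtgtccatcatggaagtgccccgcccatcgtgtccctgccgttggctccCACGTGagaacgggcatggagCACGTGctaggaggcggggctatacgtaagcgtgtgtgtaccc
Hormad1: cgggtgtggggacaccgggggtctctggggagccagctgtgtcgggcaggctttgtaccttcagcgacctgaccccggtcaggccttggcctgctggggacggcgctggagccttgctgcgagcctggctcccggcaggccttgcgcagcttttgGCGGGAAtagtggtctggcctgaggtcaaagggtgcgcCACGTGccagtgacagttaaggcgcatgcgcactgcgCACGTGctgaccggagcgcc
Ddx4: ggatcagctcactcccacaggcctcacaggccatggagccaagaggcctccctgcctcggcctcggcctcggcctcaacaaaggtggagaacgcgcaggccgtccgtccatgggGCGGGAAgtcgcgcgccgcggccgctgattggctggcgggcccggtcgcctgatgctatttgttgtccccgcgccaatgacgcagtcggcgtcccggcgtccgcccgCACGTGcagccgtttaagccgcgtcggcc
In Sycp3 the E2F6 motif began 147 bases and the E-boxes 64 and 43 bases before the start. In Hormad1 these distances were 95, 57 and 20 bases. In Ddx4 they were 136 and 29 bases.

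**Figure D1:**
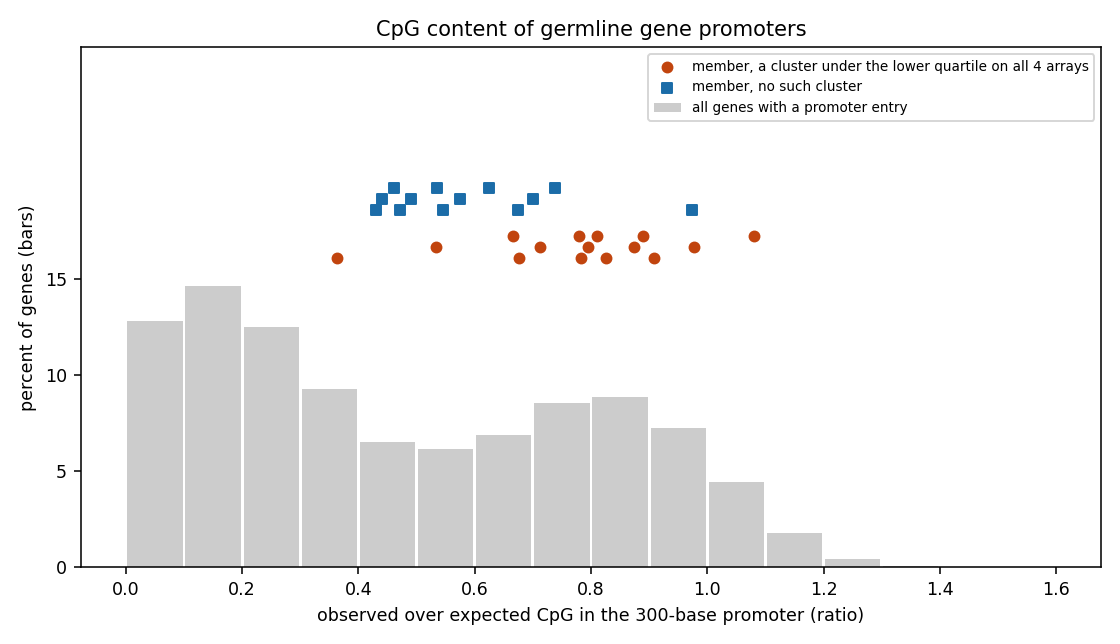
Ratio of observed to expected CpG in the 300-base RefSeq promoter (horizontal axis); bars give the percent of all 27018 genes in each bin of 0.1, and each point is 1 of the 28 members with a promoter entry, placed above the bars at a height that carries no value (circles have a silent cluster, squares have none). Most members lie to the right of 0.5, where 44.3% of all genes lie.

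The germline genes read low, and about as many clusters were silent as were not. The deposited values are log2 values, and a level is given here as its place among all 35556 clusters of the same array, since probes of different genes differ in how strongly they bind. Lower quartiles of the 4 arrays lay between 5.63 and 5.65, medians between 6.94 and 6.98 and upper quartiles between 9.11 and 9.15. Of the 32 member clusters, 16 (50%), from 16 genes, were under the lower quartile on every array, against 18.7% of all clusters with 1 symbol. A total of 30 were under the median on every array, 2 were above it (Piwil2 and Tuba3a), and 0 reached the upper quartile, which 27.4% of all tested clusters exceeded on every array. For comparison, the 1210 clusters of olfactory and vomeronasal receptor genes, which B cells do not use, had medians of 4.59 to 4.64 and 95th percentiles of 6.26 to 6.28. Against those percentiles 26 of 32 member clusters were lower on every array and 2 were higher, again Piwil2 and Tuba3a. In bulk RNA, a dim reading from few cells and little RNA in every cell cannot be told apart. Raw intensities were not used here, so whether a dim cluster was above background is unknown.

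Loss of Mbd4 was not followed by a called gain in any of them. Limma tests every cluster with its own variance, drawn toward a value common to all clusters. It called 0 of 32 member clusters at a Benjamini-Hochberg adjusted p under 0.05. Of all tested clusters 1.39% passed (302 of 21789, 0.431% higher and 0.955% lower). At an unadjusted p under 0.05 there were 3, Tuba3b higher and both clusters of Hormad1 lower, or 9.38% against 13.8% of all clusters (7.4% higher and 6.43% lower). Control and Mbd4 KO arrays were fully separated for 15 of the 32 (46.9%), 6 higher and 9 lower in Mbd4 KO, close to the 45% of all clusters (26.7% higher and 18.3% lower). The 6 were Tuba3b, Mov10l1, Syce1, Dazl, Brdt and the dimmer cluster of Dppa3. The 9 were both clusters of Hormad1, Hormad2, Sycp2, Piwil2, Boll, Ddx25, Sohlh2 and Dpep3. Differences were above 0 for 16 clusters and below 0 for 16. Their median was -0.0019 (log2), beside 0.021 over all tested clusters. No member crossed from under the lower quartile on both control arrays to above it on both Mbd4 KO arrays (0.436% of all clusters did), and 0 crossed the other way (0.289%). Clusters that stayed silent were seldom called: of the 4073 tested clusters under the lower quartile on all arrays, 10 (0.246%) passed, and 4 (0.0982%) were higher. By its definition this set holds no cluster that rose above the lower quartile in Mbd4 KO, so it gives no rate of gain from silence.

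The precision of these values limits how large a missed gain could be. The upper end of limma's 95% interval of the difference, not adjusted for the number of clusters, stayed under a 2-fold rise (1 on the log2 scale) for 32 of 32 member clusters. It stayed under 1.41-fold (0.5) for 29 of 32, and the exceptions were Tuba3b (0.89), Zfp42 (0.66) and Tex19.1 (0.62). Of all 21789 tested clusters it stayed under 1 for 21749 and under 0.5 for 20909. Such counts are thus common to most clusters and not particular to the germline genes. Log2 differences between dim clusters can understate a change in RNA, because background makes up part of both values. With 2 arrays a group, an exact two-sided permutation test of 1 gene cannot give a p below 0.333.

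**Figure D2:**
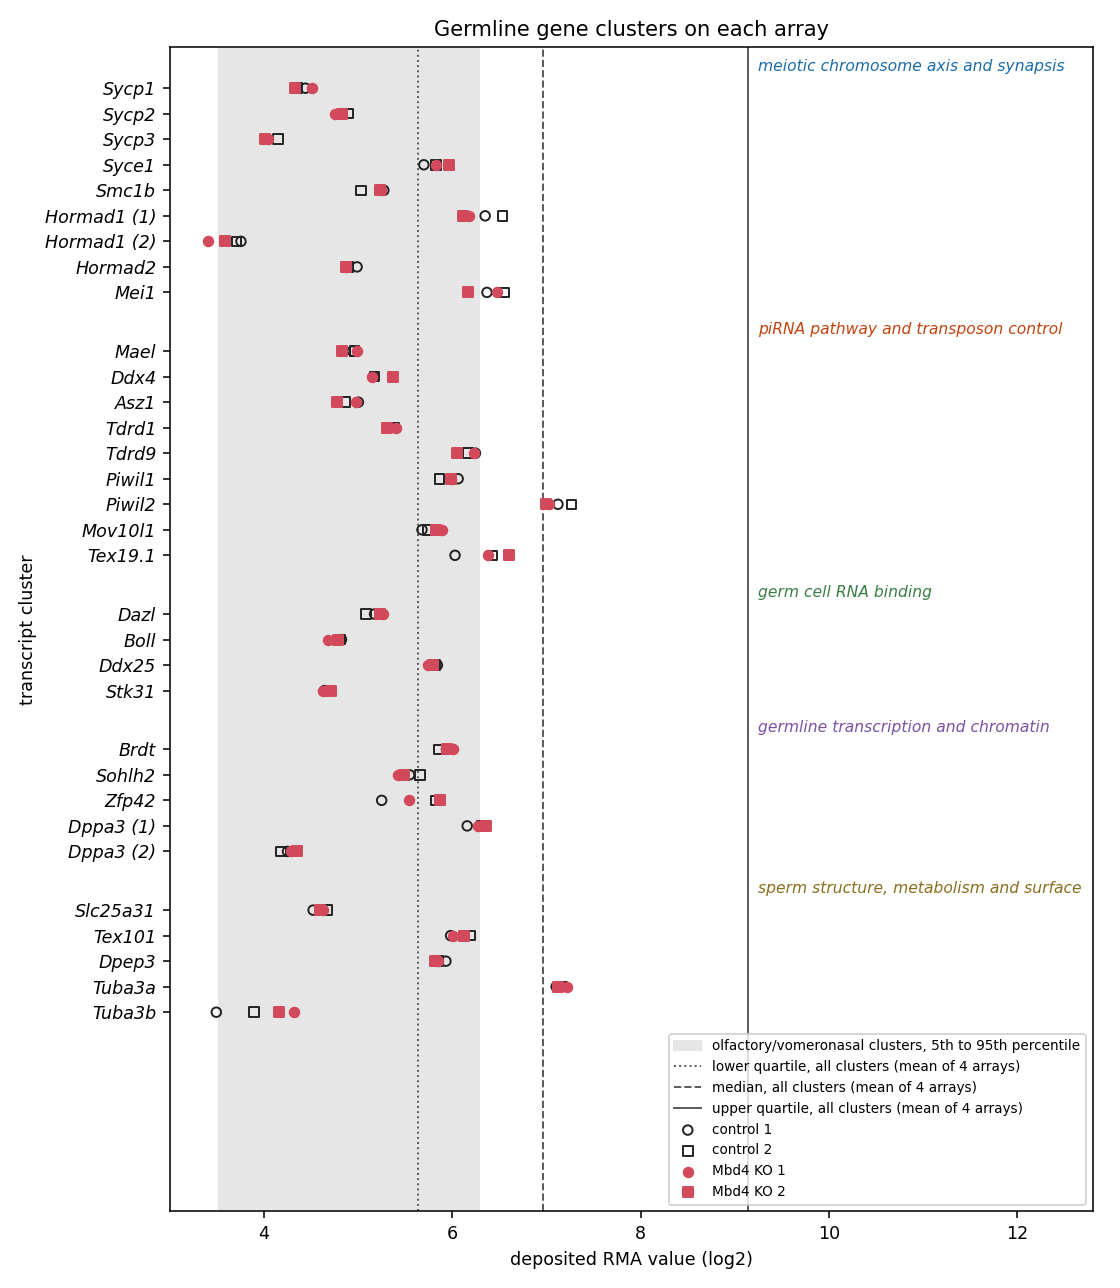
Deposited log2 value (horizontal axis) of each of the 32 member clusters, by role, on the control arrays (open symbols) and the Mbd4 KO arrays (filled symbols), with the brighter cluster of Hormad1 and Dppa3 as (1) and the dimmer as (2); dotted, dashed and solid lines are the mean lower quartile, median and upper quartile of all clusters, and grey spans the lowest 5th to the highest 95th percentile of the 1210 receptor clusters. Only Piwil2 and Tuba3a sit to the right of the median line on all arrays.

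Proteins of the meiotic chromosome axis and the synaptonemal complex included the most silent clusters, 6 of 9. Sycp1, the transverse filament of the synaptonemal complex, read 4.44 and 4.36 (log2) on control arrays 1 and 2, and 4.51 and 4.33 on Mbd4 KO arrays 1 and 2, the order kept below. Sycp2, an axis protein, read 4.83 and 4.90 against 4.76 and 4.83. Sycp3, its partner in the axis, read 4.04 and 4.15 against 4.04 and 4.01. All 3 stayed under the lower quartile, with differences from -0.069 to 0.021 and SE of 0.071 to 0.088. Smc1b, the meiotic cohesin subunit, was also silent, at 5.27 and 5.03 in control and 5.24 and 5.23 in Mbd4 KO arrays, with control array 2 the lowest. Hormad2, a HORMA-domain protein that marks unpaired axes, read 4.99 and 4.90 against 4.87 and 4.87 and did not overlap, although its difference of -0.075 was near its SE of 0.070.

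Hormad1, the HORMA-domain protein that promotes pairing and break formation, had the largest negative difference of all members and gave it in both of its clusters. The brighter cluster (10494281), between the 34.7th and 42.9th percentiles of the arrays, read 6.35 and 6.54 with Mbd4 and 6.18 and 6.12 without it. The dimmer one (10536427), between the 1.31st and 3.01st percentiles, read 3.76 and 3.71 against 3.41 and 3.58. Both Mbd4 KO arrays lay below both control arrays in each cluster. The differences were -0.29 ± 0.086 and -0.24 ± 0.083 (log2, SE), and neither passed limma (adjusted p = 0.221 and 0.297; unadjusted 0.0141 and 0.0296). Probe positions were not used here, so which sequence the dimmer one reads is uncertain. Hormad1 is among the silent genes through that cluster alone.

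Syce1, a central element protein of the synaptonemal complex, and Mei1, which meiotic double-strand breaks require, were the other axis and synapsis genes above the lower quartile. Syce1 read 5.70 and 5.83 against 5.83 and 5.97, groups that touch without overlapping. Its difference was 0.13 ± 0.085 (log2, SE; limma adjusted p = 0.55). Mei1 read 6.37 and 6.55 against 6.48 and 6.16, and the low Mbd4 KO array 2 gave an SD of 0.22 in that group.

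Of the 9 piRNA pathway and transposon control genes, 4 were silent on every array: Mael, Ddx4, Asz1 and Tdrd1. Mael, needed for transposon silencing in the male germline, read 4.94 and 4.96 in control and 4.99 and 4.83 in Mbd4 KO arrays. Ddx4, the Vasa helicase that marks germ cells, read 5.16 and 5.17 against 5.14 and 5.37. The higher value of Ddx4 in Mbd4 KO array 2 was not matched by the other array. Asz1, a mitochondrial scaffold of piRNA production, read 5.00 and 4.86 against 4.97 and 4.78, and Tdrd1, a Tudor protein that holds PIWI complexes, 5.33 and 5.39 against 5.41 and 5.31. The groups overlapped for these 4 genes, whose differences ran from -0.056 to 0.093 (log2).

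Piwil2, the PIWI protein known as MILI, was the one piRNA gene above the array medians, at the 50.3rd to 54th percentiles. It read 7.12 and 7.27 in control and 7.03 and 6.99 in Mbd4 KO arrays, so that Mbd4 KO was lower without overlap. The difference was -0.19 ± 0.078 (log2, SE), with an adjusted p of 0.374 by limma, and did not pass. Piwil1, the PIWI protein MIWI of later sperm development, read 6.06 and 5.86 against 5.98 and 5.99. Tdrd9, a Tudor-domain helicase, read 6.25 and 6.17 against 6.24 and 6.05. Both lay between the lower quartile and the median, with groups that overlapped.

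Mov10l1, the helicase that starts piRNA processing, read 5.68 and 5.74 in control and 5.90 and 5.83 in Mbd4 KO arrays. The groups did not overlap, but the difference of 0.16 ± 0.070 (log2, SE) did not pass limma (adjusted p = 0.404). Mov10l1 was above the lower quartile of all clusters on every array, so it was not a silent gene gaining signal by that measure. The lower quartile of clusters with 1 symbol was 5.82 and 5.79 on control and 5.85 and 5.81 on Mbd4 KO arrays. By that measure Mov10l1 crossed upward, so the answer for this gene depends on the reference. Tex19.1, which restrains retrotransposons in germ cells and placenta and is known to respond to loss of methylation in body cells, read 6.03 and 6.42 against 6.38 and 6.60. Its difference of 0.26 ± 0.15 was the second largest positive one and did not pass (adjusted p = 0.501). The low value of control array 1 put the SD of that group at 0.28, against a median of 0.0633 over the member clusters.

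Dazl, Boll and Stk31, 3 of the 4 RNA-binding genes, were silent. Dazl, the founding RNA-binding protein of germ cell development, read 5.17 and 5.09 in control and 5.27 and 5.23 in Mbd4 KO arrays. Both Mbd4 KO arrays were higher, by 0.12 ± 0.071 (log2, SE), which limma did not call (adjusted p = 0.53), and all 4 values stayed between the 15.7th and 18.5th percentiles. Boll, the ancestral member of the DAZ family, read 4.82 and 4.81 against 4.68 and 4.78, in the opposite order to Dazl. Stk31, a Tudor-domain kinase-like protein of germ cells, read 4.64 and 4.70 against 4.62 and 4.71. Ddx25, a testis RNA helicase under hormone control, was above the lower quartile at 5.84 and 5.82 against 5.75 and 5.80. Its promoter had the most CpG sites of all members, 41.

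The transcription and chromatin genes lay near or above the lower quartile, apart from 1 cluster of Dppa3. Brdt, the testis bromodomain protein that reads acetylated histones, read 5.94 and 5.85 in control and 6.01 and 5.94 in Mbd4 KO arrays. Sohlh2, a helix-loop-helix factor of early germ cells, read 5.55 and 5.66 against 5.42 and 5.49. Sohlh2 was thus just under the lower quartile on 3 arrays and just over it on control array 2, with a difference of -0.15 ± 0.075 (log2, SE; limma adjusted p = 0.462). The nearest silent clusters inside that boundary were Ddx4 and Tdrd1, and the nearest outside it were Sohlh2, Zfp42 and Mov10l1. Dppa3, which protects methylation in the early embryo, read 6.16 and 6.32 against 6.27 and 6.36 in its brighter cluster (10541515). Its dimmer, silent cluster (10604135) read 4.25 and 4.18 against 4.29 and 4.36. The dimmer cluster did not overlap between groups (0.11 ± 0.071), while the brighter one did (0.077 ± 0.083). Which sequence the dimmer one reads is uncertain, as for Hormad1, and Dppa3 is among the 16 silent genes and the 6 higher clusters through it alone.

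Zfp42, the zinc-finger protein Rex1 of pluripotent cells, was the least reproducible member. It read 5.25 and 5.82 in control and 5.54 and 5.87 in Mbd4 KO arrays, on either side of the lower quartile within each group. Its SD was 0.41 in control and 0.23 in Mbd4 KO arrays, and its difference of 0.17 ± 0.20 (log2, SE) was smaller than its error. Among the member clusters 3 had an SD above 0.2 in the control group, Zfp42, Tex19.1 and Tuba3b, and 2 in the Mbd4 KO group, Zfp42 and Mei1. In Zfp42, Tex19.1 and Tuba3b control array 1 was the lowest of the 4 arrays.

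Genes of sperm structure, metabolism and surface ranged from silent to above the median. Slc25a31, the ADP/ATP carrier of sperm mitochondria and a known E2F6 target, was silent at 4.52 and 4.68 in control and 4.63 and 4.59 in Mbd4 KO arrays. Tex101, a germ cell surface protein, read 5.98 and 6.19 against 6.01 and 6.12. Dpep3, a testis membrane dipeptidase, read 5.93 and 5.85 against 5.85 and 5.82. These 3 genes differed by -0.057 to 0.0089 (log2), less than their SE of 0.070 to 0.094.

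Tuba3b, a testis alpha-tubulin, showed the largest difference of any member. It read 3.49 and 3.90 in control and 4.32 and 4.16 in Mbd4 KO arrays, with both Mbd4 KO arrays above both controls. The difference was 0.54 ± 0.14 (log2, SE), 1.46-fold, with a 95% interval from 0.20 to 0.89. It did not pass limma (adjusted p = 0.175, unadjusted 0.00837), except with an intensity trend in the variance prior (adjusted p = 0.043). With that trend the value toward which variances are drawn depends on how bright a cluster is. Without control array 1, the lowest, the difference was 0.34, and without control array 2 it was 0.74. On every array Tuba3b stayed between the 1.68th and 7.26th percentiles, so that its Mbd4 KO values remained those of a silent cluster. Rises of at least this size were seen in 6 (0.147%) of the silent tested clusters and in 0.349% of all tested clusters. The silent set leaves out, by its definition, clusters that rose above the lower quartile.

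Tuba3a, the paralog of Tuba3b, read 7.10 and 7.17 in control and 7.22 and 7.12 in Mbd4 KO arrays, at the 52.3rd to 53.7th percentiles. Its groups overlapped, and its difference was 0.037 ± 0.073 (log2, SE; limma adjusted p = 0.873). Tubulin genes are close copies of each other, so which alpha-tubulin transcripts each cluster reads is uncertain. Both genes lie on chromosome 6, as does Mbd4, and the median difference of the 1167 tested clusters of chromosome 6 was 0.029. Mbd4 itself read 8.74 and 8.77 in control and 6.47 and 6.49 in Mbd4 KO arrays, lower as the labels say. Its Mbd4 KO values, at the 41.2nd and 42nd percentiles, were still above the lower quartile and not those of a silent cluster. The Mbd4 probes were not placed relative to the deletion.

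**Figure D3:**
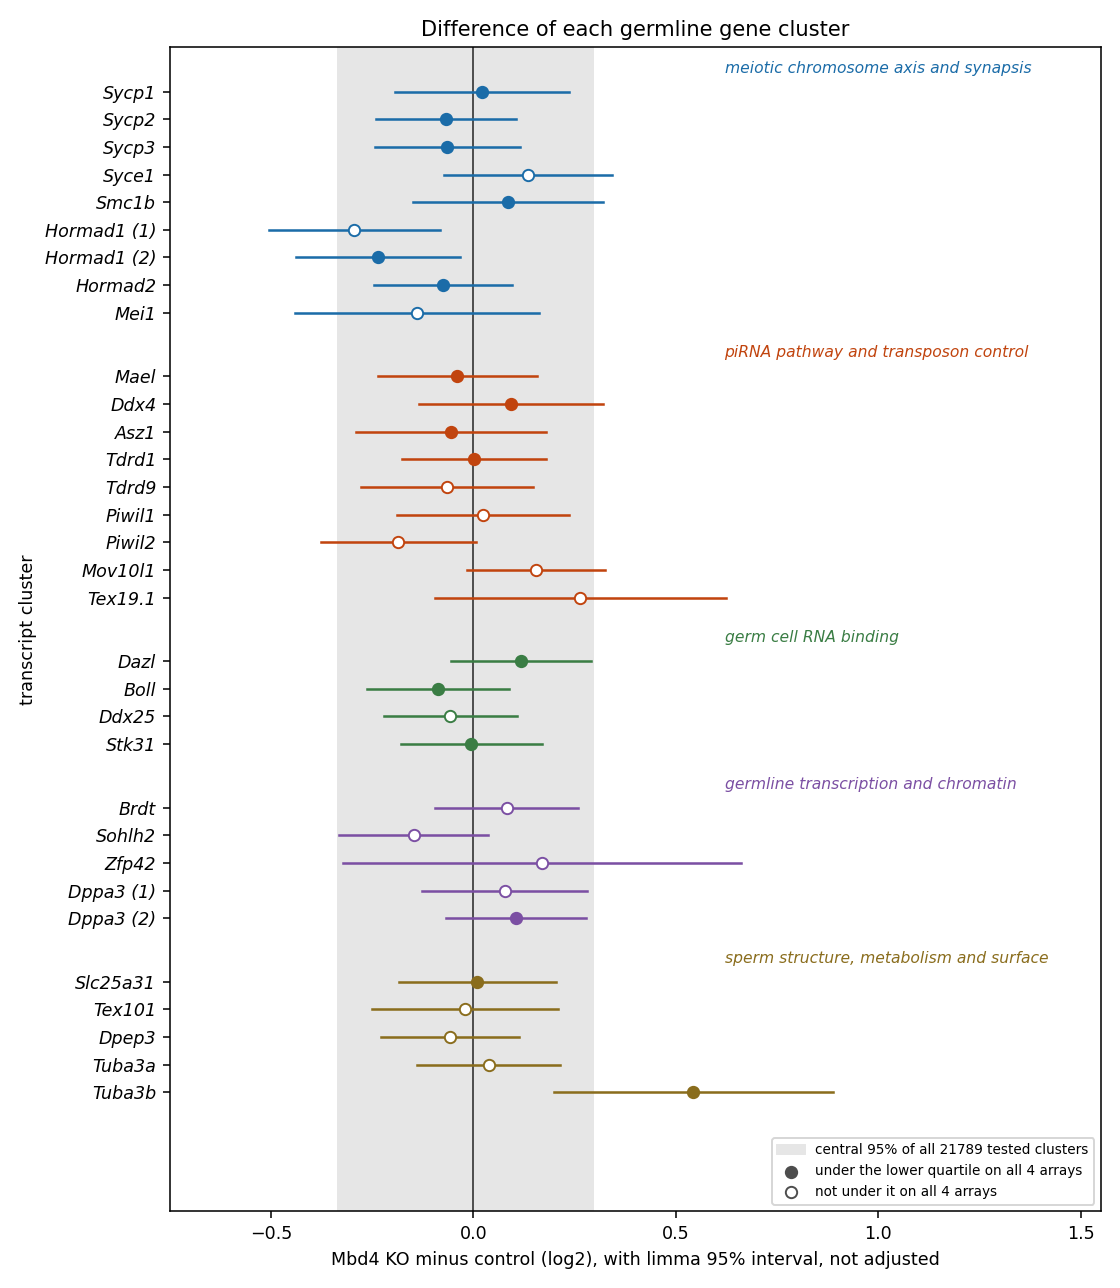
Mbd4 KO minus control difference (log2, horizontal axis) of the 32 member clusters by role, with limma's 95% interval, not adjusted; filled points were under the lower quartile on all 4 arrays, and grey marks the central 95% of all tested clusters, from -0.335 to 0.295. Tuba3b (0.54) is the only member point outside the grey, and the intervals of Tuba3b and of both Hormad1 clusters leave out 0.

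CpG content is given for silent and other members side by side, a split by levels of different genes' probes, which a place within the array does not make comparable. The 15 members with a silent cluster and a promoter entry had a median CpG ratio of 0.795 and a median of 24 sites. The 13 members without a silent cluster had 0.545 and 16 sites. The E2F6 motif was in 7 of those 15 promoters (46.7%) and 1 of those 13 (7.69%), and the E-box in 8 (53.3%) and 5 (38.5%). Tuba3a was the 1 promoter with the E2F6 motif and no silent cluster. Hormad1, which holds both motifs, is among the 15 through its dimmer cluster alone. The sequence which that cluster reads is uncertain, and the brighter cluster of Hormad1 was not silent. Piwil2, the other gene above the median, had no promoter entry. These shares describe few genes and were not tested.

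Other germ cell genes, outside the members, were also mostly dim. Of 48 listed, 45 were measured in 46 clusters, and 18 clusters (39.1%) were under the lower quartile on every array. Limma called 0 of the 46, and 5 had an unadjusted p under 0.05 (10.9%, beside 13.8% of all tested clusters). These were Prdm9, Tex12, Acrv1 and Rpl10l, which were lower, and Sohlh1, which was higher. The largest differences were those of Prdm9, the histone methyltransferase that places meiotic recombination (-0.29; adjusted p = 0.156), and Tex12, a central element protein (-0.26; adjusted p = 0.248). The median over the 46 was 0.0093, beside 0.021 over all tested clusters. Across the lower quartile, 0 of the 46 moved upward from both control to both Mbd4 KO arrays, and 1, Dmc1, moved downward (2.17%, beside 0.289% of all tested clusters).

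Genes that silence germline promoters mostly read above the upper quartile, and their differences were not called. Among the 32 measured of 33 listed writers, readers and repressors, 34 of 42 clusters (81%) were above the upper quartile on every array. The share of all tested clusters was 27.4%. Some genes count more than once, Cbx3 the most, and its clusters 10405874 and 10410207 had the same values on every array. Limma called 0 of the 42, and 4 had an unadjusted p under 0.05 (9.52%, beside 13.8% of all tested clusters). The largest difference was that of Dnmt3l, the methyltransferase cofactor that is itself a germ cell gene. It read 5.68 and 5.73 in control and 6.11 and 6.21 in Mbd4 KO arrays, a difference of 0.45 ± 0.073 (log2, SE) just short of the threshold (adjusted p = 0.0524). With an intensity trend limma called Dnmt3l (0.0296) and both clusters of Tfdp1, the E2F dimer partner (-0.25 and -0.19). Atf7ip, a partner of the H3K9 methyltransferase SETDB1, differed by 0.27 in its dimmer cluster (adjusted p = 0.209). The 2 largest differences of this list were thus both positive, and its median was -0.011.

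Of the genes that oxidise methylcytosine or repair the product, 4 of 15 clusters passed limma (26.7%, beside 1.39% of all tested clusters). Among the 4 are Mbd4, the gene that the genotypes differ in by design, and 2 clusters of the single gene Tet1. Mbd4 fell by 2.28 (log2; adjusted p = 0.0002), Polb, DNA polymerase beta, by 0.50 (adjusted p = 0.0449), and Tet1, a methylcytosine dioxygenase, rose in 2 of its 3 clusters by 0.52 and 0.50 (adjusted p = 0.0413 and 0.0462). The third Tet1 cluster differed by 0.25 and did not pass (adjusted p = 0.221). Leaving out any 1 array ended the calls of Tet1 (0.44 to 0.57; adjusted p = 0.136 to 0.228) and Polb (-0.56 to -0.45; 0.159 to 0.233), with differences of similar size, as did a block for the replicate number (0.0763 and 0.0902 for Tet1, 0.071 for Polb) and a fit of all 35556 clusters (0.187 to 0.199). Quantile and cyclic loess normalization ended the call of the second Tet1 cluster (0.0521 and 0.0522). The main fit called the rise of Tet1 and 0 of 32 germline member clusters. With an intensity trend limma called both these Tet1 clusters (adjusted p = 0.00505 and 0.0143) and the member Tuba3b (0.043), all higher. A link between Tet1 and the germline genes was not tested.

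**Figure D4:**
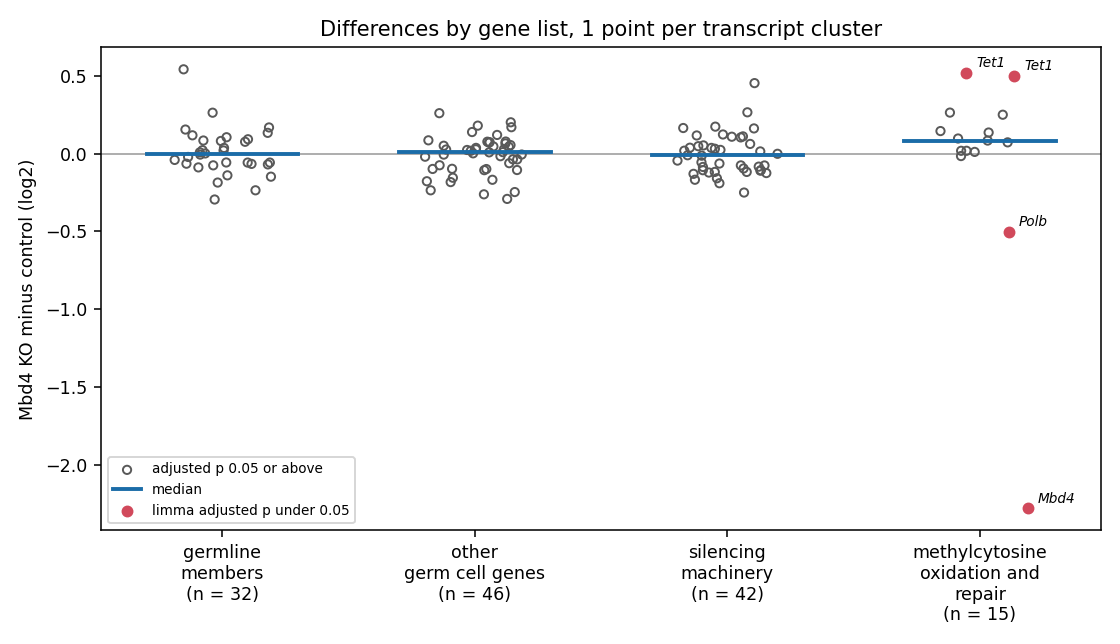
Mbd4 KO minus control difference (log2, vertical axis) of every cluster in 4 gene lists, 1 point per cluster, with the median as a blue line; filled points passed limma at an adjusted p under 0.05. Filled points are found only in the list of methylcytosine oxidation and repair (Tet1 in 2 clusters, Polb and Mbd4), and the medians of the lists lie between -0.011 and 0.084.

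Marker genes read as those of a B cell line. Of 12 clusters of B cell genes, 9 were above the upper quartile on all 4 arrays, and 2 of the 3 Ighm clusters were below the median. Of the 6, 8, 7 and 8 clusters of T cell, myeloid, pluripotent and testis somatic markers, 0 were above the upper quartile, and 1, the myeloid gene Csf1r, was above the median throughout. The largest differences in these lists were Cd22 0.44 and Ighm 0.38 (its dimmest cluster; the one above the median gave -0.084), Cd3g 0.42 and Cd4 -0.19, Adgre1 -1.06 and Lyz2 0.24, Pou5f1 0.40 and Tdgf1 -0.13, and Inhba -0.16 and Sox9 0.13. Of them limma called Adgre1 alone (adjusted p = 0.00311), and not with all 35556 clusters in the fit (0.065). Pou5f1 was under the lower quartile on both control arrays (5.36 and 5.53) and above it on both Mbd4 KO arrays (5.79 and 5.90). It was the 1 pluripotent marker cluster of 7 to cross upward (0.436% of all tested clusters did), and limma did not call it (adjusted p = 0.12).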

How the data were processed

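RNA of 4 arrays was compared, 2 control and 2 Mbd4 KO, with groups taken from the sample titles. The deposited log2 values, 1 per transcript cluster and array, came from RMA, as the submitters' processing notes name it, and no source used here gives its version or settings. RMA corrects background, equalises arrays by quantiles and summarises probes. The log2 scale was read from the values (2.69 to 14.7).

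Clusters with 1 symbol in the platform's gene table (21789) were tested with limma 3.58.1 in R 4.3.3 (lmFit, eBayes), as a two-sided test with p-values adjusted by Benjamini-Hochberg across these clusters and no filter; 1621 clusters with several symbols and 12146 with none in that table were left out. SE is limma's moderated standard error (2 residual and 4 prior degrees of freedom). The number of arrays limits the precision. At most 39 values were identical between any 2 arrays.

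Members and lists were chosen with earlier results of these data known. Every member is named, with per-array values; of other lists, genes that passed and the 2 largest differences. Genes at an unadjusted p under 0.05, Csf1r and Dmc1 were named after their values were seen. Promoters came from RefSeq (GRCm38.p6); where a gene has several, the one with the most CpG sites was used. The procedure was also run on simulated data with planted differences. Their recovery is not reported here, so that run gives no rate of missed changes. Alternatives were a block for the replicate number, leaving out each array, a trend or robust prior, leaving out the dimmest 30% of clusters, cyclic loess or quantile normalization, all clusters, other thresholds and other references for silence.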

Additional observations from a re-analysis of the deposited data

How the results depend on the processing

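Limma called 0 of 32 member clusters with every array left out in turn, with the replicate number as a block, with a robust prior, with quantile or cyclic loess normalization, with all clusters of the table, at an adjusted p under 0.1, and among the 8 members left without the dimmest 30% of clusters. It called 1 (Tuba3b) with an intensity trend, and 3 at an unadjusted p under 0.05. The count over all clusters was 302, and became 159 with the replicate block, 65 to 75 without 1 array, 1121 with the trend, 640 without the dimmest 30%, 22 with all clusters, 593 at an adjusted p under 0.1 and 3013 unadjusted. The cause was not tested. Silencing machinery had 3 calls with the trend, 1 at an adjusted p under 0.1 and 4 unadjusted, and other germ cell genes 5 unadjusted. Both genotypes have arrays numbered 1 and 2. Same-numbered arrays deviated together with a correlation of 0.083 over clusters, and the replicate numbers only name the arrays. Silent member clusters numbered 16, and 26 against the receptor percentile. With the quartile of clusters with 1 symbol, 1 member (Mov10l1) crossed upward and 1 (Ddx25) downward; against the receptor percentile 1 (Hormad1) crossed downward. The median member difference ranged from -0.043 (8 clusters, without the dimmest 30%) to 0.023.

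Member differences changed sign 24 times, all with 1 array left out or another normalization, the settings that can move a difference, and none of these values was called. Tdrd1 became -0.0038 with quantile and -0.015 with cyclic loess normalization, and Piwil1 became -0.00016 with cyclic loess. With 1 array left out the member differences spanned Asz1 -0.156 to 0.0428, Ddx4 -0.0216 to 0.207, Dppa3 (brighter cluster) -0.00146 to 0.155, Mael -0.121 to 0.0414, Mei1 -0.296 to 0.0175, Piwil1 -0.077 to 0.123, Slc25a31 -0.0677 to 0.0856, Smc1b -0.0364 to 0.206, Stk31 -0.0473 to 0.036, Sycp1 -0.0726 to 0.114, Tdrd1 -0.0472 to 0.0507, Tdrd9 -0.158 to 0.0274, Tex101 -0.124 to 0.0819, Tuba3a -0.00978 to 0.0842, Zfp42 -0.117 to 0.455. Outside the members, the marker genes Sox9 (-0.00169 to 0.259) and Tdgf1 (-0.381 to 0.125) also changed sign. Both Hormad1 clusters, Tuba3b, Dazl, Mov10l1 and Tex19.1 kept their sign in every fit run.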
